A study of Mus musculus with 6 samples.

Results

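Voltage-gated sodium and calcium channels were examined in brainstem and cerebellum RNA from wild-type and MSA transgenic mice. The set held every non-control array probe whose gene name in the files was Scn with a number and a or b, or began with Cacna1, Cacna2d, Cacnb or Cacng. These were 98 of 56605 probes and 39 of 37008 genes, and 79 probes of 35 genes gave a signal bright enough to test. The 3 wild-type and 3 MSA transgenic samples were 16 weeks old, of mixed C57BL/6, 129 and C3H background, and each was hybridised to 1 single-colour array. What MSA stands for, the transgene, its promoter and the sex are not given in the labels. Nothing in them says that each sample is an animal of its own, so every p-value rests on a spread that may in part be technical.

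Voltage-gated channels open when the membrane depolarises. A sodium channel is 1 large pore-forming alpha subunit with small beta subunits at its side, and it starts the action potential at the axon initial segment. A calcium channel is an alpha1 pore that, in most types, is held with an intracellular beta and an extracellular alpha2delta subunit; it couples depolarisation to transmitter release, pacemaking and gene expression. The gamma family includes the TARPs, which mainly traffic and tune AMPA-type glutamate receptors. In the hindbrain these genes matter for motor control, since inherited loss of Cacna1a, Cacnb4, Cacna2d2, Cacng2 or Scn8a gives ataxic or dystonic mice.

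Each value below comes from 1 probe of 60 bases, so what a probe reads is shown first. The sequences are the probes as given in the files, 5' to 3' in the sense of the transcript, with positions on build mm9. The first probe had the lowest p of all channel probes and reads Cacng7, which encodes TARP gamma-7, at chr7:3338624-3339037 on the plus strand. Those 414 bases of genome for 60 bases of probe mean that it crosses a splice junction.
Cacng7 A_51_P327675: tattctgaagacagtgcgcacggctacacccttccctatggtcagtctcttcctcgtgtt
The Cacna1a probe at chr8:86939802-86985407, plus strand, also joins exons, here across an intron, and reads the start of the P/Q-type pore.
Cacna1a A_55_P2732041: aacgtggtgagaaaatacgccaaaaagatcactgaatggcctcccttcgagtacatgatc
The Cacna1d probe at chr14:30855259-30855318, minus strand, ends at a stop codon, shown in capitals, and is 1 of 3 Cacna1d probes that did not move alike.
Cacna1d A_55_P2125376: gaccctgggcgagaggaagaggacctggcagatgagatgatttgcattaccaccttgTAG
The Cacna1h probe at chr17:25521284-25521343, minus strand, is shown because 1 array decided its difference.
Cacna1h A_66_P135909: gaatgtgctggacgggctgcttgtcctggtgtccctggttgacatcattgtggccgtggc
For the 71 channel probes whose gene is in the RefSeq promoter table (GRCm38.p6), the probe's strand matched the gene's in all 71.

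No channel probe passed the test at an adjusted p under 0.05 with limma, against 0.0286% of all 38463 probes tested. At an unadjusted p under 0.05, 4 of the 79 passed, 2 of them higher and 2 lower in transgenic samples, against 5.59% of all probes (2.99% higher and 2.60% lower). In 7 probes the 3 transgenic values lay entirely above (3 probes) or below (4 probes) the 3 wild-type values, against 13.9% of all probes (6.68% above and 7.26% below). Both shares of channel probes, 5.06% and 8.86%, were no higher than the background. The 4 and the 7 both hold a Cacna2d4 probe that was above background in wild type alone, so the filter itself favoured a difference there. Among the 72 channel probes above background on all 6 arrays the counts were 3 and 6. The split of the 4 into directions depended on the scaling: it was 0 higher and 3 lower with quantile normalization, and 1 higher and 3 lower with median scaling. It was 0 higher and 4 lower with a normexp background correction.

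The differences were small for most of the set. The log2 difference, transgenic minus wild type, had a median of -0.04 over the 79 probes and of -0.01 over all probes tested. It was under 0.3 in size for 69 probes and under 0.15 for 50. The 95% interval of the difference lay within a 2-fold change in either direction for 66 probes and within 1.5-fold for 50, so larger changes of those transcripts lay outside the interval. Among the probes above background on all 6 arrays the differences ran from -1.10 for a Cacng7 probe to 0.74 for a Scn8a probe, and 4 reached 0.5 in size. In bulk RNA like this, fewer cells of a type and less RNA per cell cannot be told apart.

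**Figure D1:**
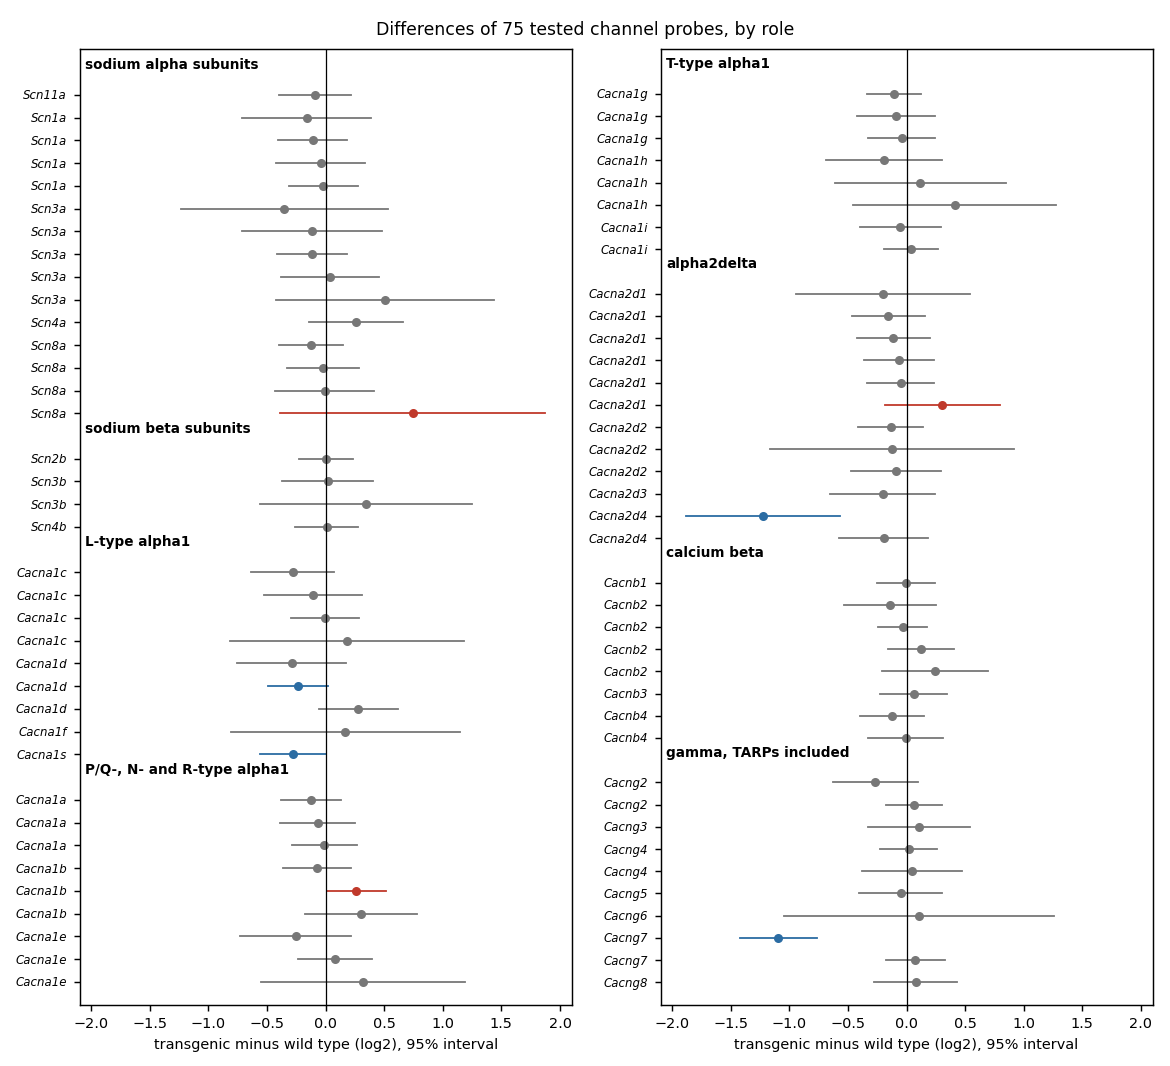
Log2 difference, transgenic minus wild type, of 75 tested channel probes with the 95% interval of each, grouped by role. Red and blue mark the 7 probes whose groups do not overlap (3 higher, 4 lower), and most others lie close to 0.

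One array stood apart from the others and touches several results. Wild-type replicate 1 was the only array on slide 1, and its 75th percentile of signal was 405.7 intensity units, against 535.0 to 609.2 on slide 2. Its level was the highest of the 6 samples for 36 of the 79 channel probes (45.6%; 34.9% of all probes) and the lowest for 19 (24.1%; 29.8%). With all arrays 30 of the 79 probes were higher in transgenic samples (48.1% of all probes), and without this array 45 were (again 48.1% of all). Without it the median difference was 0.02, 5 probes had an unadjusted p under 0.05 (8.27% of all) and 18 had groups that did not overlap (27.0% of all). The part of slide in these values was not tested, since slide 1 held 1 array. Values from the 5 arrays of slide 2, with 2 wild-type samples, are given below beside the differences that rested on this array.

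**Figure D2:**
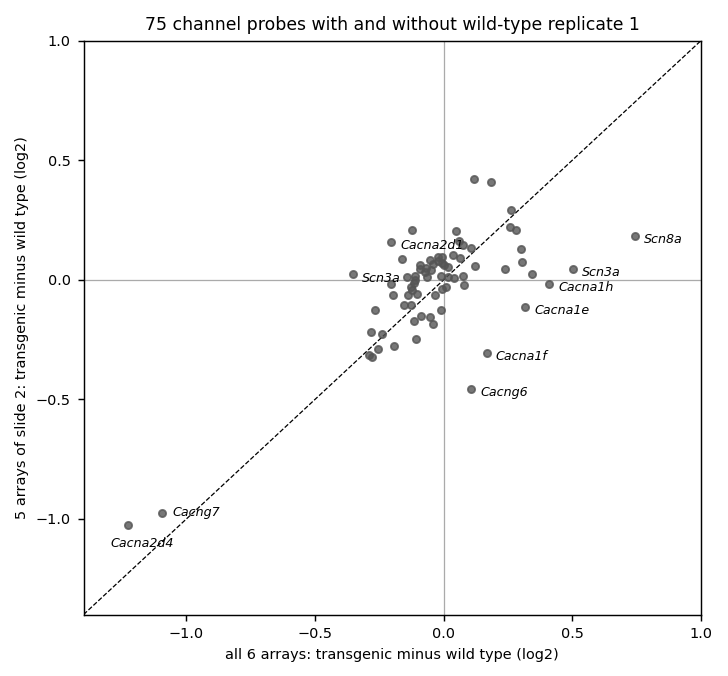
Log2 difference of 75 channel probes over all 6 arrays (horizontal) against the 5 arrays of slide 2 (vertical), with the dashed line of equality. Cacng7 (-1.10 and -0.97) stays near the line, while the Scn8a (0.74 and 0.19), Scn3a (0.50 and 0.05) and Cacng6 (0.11 and -0.46) probes leave it.

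Among the gamma genes, Cacng7 had the smallest p of the set. Levels here are the log2 of a probe's signal over the array's 75th percentile of signal, so 0 is that percentile. The upstream Cacng7 probe, printed first above, read 0.20, -0.24 and -0.08 in the wild-type samples and -1.06, -1.20 and -1.14 in the transgenic samples. Every transgenic sample was below every wild-type sample, by more than the range within either genotype. As deposited, its signals were 467, 475 and 506 intensity units in wild type and 292, 258 and 273 in transgenic samples. The difference was -1.10 ± 0.13 (SE, n = 3 per genotype), a transgenic level of 0.468 of wild type with a 95% interval of 0.373 to 0.588. Its p ranked 52 of 38463 probes, and the adjusted p was 0.127 (limma), so it did not pass. It passed with a normexp background correction (adjusted p = 0.0234), with array weights (0.0245) and with a trended robust prior (0.0483). Over the other settings the adjusted p ran from 0.101 with slide as a block to 0.622 without transgenic replicate 3.

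The second Cacng7 probe did not share this difference. It lies 28.7 kb downstream, at chr7:3367751-3367810, and read 4.98, 5.07 and 5.24 in wild type against 5.22, 5.16 and 5.13 in transgenic samples. The genotypes overlapped, and the difference was 0.07 ± 0.10 (SE), with a 95% interval from -0.18 to 0.32. Within each array, the upstream level minus the downstream level was -4.77, -5.31 and -5.32 in wild type and -6.29, -6.36 and -6.27 in transgenic samples. The mean of that ratio was -5.14 ± 0.31 (SD, n = 3) in wild type and -6.31 ± 0.05 (SD, n = 3) in transgenic samples, without overlap. The upstream probe was singled out by its p and the downstream one was flat, so the ratio is no separate support. In these samples the 2 probes differed unequally between genotypes. What the upstream probe reads cannot be taken as the level of the whole gene. The neighbouring gamma genes in the same stretch of chromosome 7 gave 0.08 ± 0.14 (Cacng8, another TARP) and 0.11 ± 0.47 (Cacng6, not a TARP) over all arrays. Cacng6 read -4.35 in wild-type replicate 1 and between -3.28 and -2.61 in the other 5 samples, and its difference on slide 2 was -0.46 ± 0.13.

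**Figure D3:**
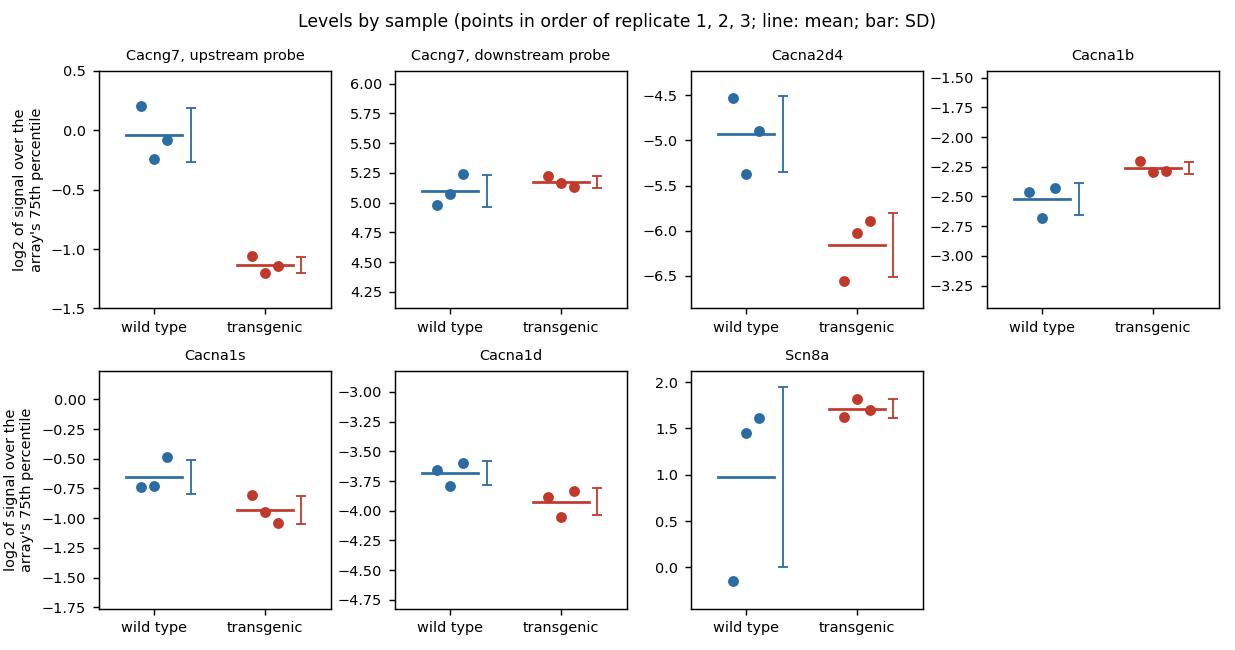
Level of 7 channel probes in each sample (log2 of signal over the array's 75th percentile; points are replicates 1 to 3 from left to right, lines means, bars SD). The upstream Cacng7 probe is lower in all transgenic samples and the downstream one is not; the Scn8a mean of wild type is pulled down by replicate 1 at -0.15.

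Cacng2 encodes stargazin, the TARP that brings AMPA receptors to the surface of cerebellar granule cells. Its brighter probe read 3.84, 3.34 and 3.50 in wild type and 3.38, 3.28 and 3.21 in transgenic samples, a difference of -0.27 ± 0.15 (SE). The genotypes overlapped, the difference on slide 2 was -0.13, and the dimmer probe differed by 0.06 ± 0.10. The other gamma genes lay close to 0: Cacng3 0.11 ± 0.18, Cacng4 0.02 ± 0.10 and 0.05 ± 0.17, and Cacng5 -0.05 ± 0.15. Cacng1, the gamma subunit of skeletal muscle, was above background on no array. Of the 10 gamma probes tested, 1 passed at an unadjusted p under 0.05, and the median difference was 0.06.

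Among the alpha2delta genes, whose products carry calcium channels to the membrane, 1 dim probe stood out. The Cacna2d4 probe at chr6:119251360-119251419 read -4.53, -5.37 and -4.89 in wild type and -6.56, -6.02 and -5.89 in transgenic samples. It was well above background on all 3 wild-type arrays and on no transgenic array, so only a bound by a set rule can be given: 2.02-fold lower. That bound sets the wild-type mean against, on each transgenic array, the lowest level of any probe called well above background or the probe's own level where that was higher. Background is called spot by spot, so a probe called dim can lie above that lowest level. The bound holds by this rule only and is not a strict lower limit. The fitted difference of -1.23 ± 0.27 (SE) had an adjusted p of 0.441 (limma), and it shrank to -0.44 with a normexp background correction. A brighter Cacna2d4 probe, at chr6:119301349-119301408, differed by -0.20 ± 0.16. Cacna2d4 is best known from photoreceptors, and of the 10 retina markers 5 were too dim to test, Gnat1 and Pde6b among them. The 5 tested had none at an unadjusted p under 0.05. Over all 10, the dim 5 included, the summed level was 0.69 to 1.14 in wild type and 0.94 to 1.14 in transgenic samples. The groups overlapped on that sum.

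The other alpha2delta genes differed little. Cacna2d1 had 6 probes between -0.20 and 0.30. Its highest, at chr5:15535681-15535740, read -0.67, 0.04 and -0.003 in wild type and 0.08, 0.10 and 0.10 in transgenic samples, with no overlap. That difference of 0.30 ± 0.20 was 0.07 on slide 2, where the low replicate 1 is absent. Cacna2d2, the alpha2delta gene of Purkinje cells, gave -0.14 ± 0.11, -0.12 ± 0.43 and -0.09 ± 0.16. Cacna2d3 gave -0.20 ± 0.18, or -0.02 on slide 2. Of the 12 alpha2delta probes, 11 had a lower mean in transgenic samples, and 1 passed at an unadjusted p under 0.05. Their median of -0.13 was the lowest of the 8 roles, but it rested on wild-type replicate 1: without that array 5 of the 12 were lower and the median was 0.01.

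The pore-forming genes of P/Q-, N- and R-type channels feed calcium to transmitter release. Cacna1a, the P/Q-type pore and the main calcium channel of Purkinje cells, had 3 probes at -0.13 ± 0.11, -0.07 ± 0.13 and -0.01 ± 0.11. The brightest read 3.72, 3.34 and 3.38 in wild type and 3.44, 3.49 and 3.30 in transgenic samples, which overlapped throughout. The exon-joining Cacna1a probe printed above was the one at -0.01, with -2.11, -2.26 and -2.14 against -2.07, -2.11 and -2.36. All 3 intervals excluded a change of 1.5-fold in either direction.

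Cacna1b, the N-type pore, had 1 probe with groups apart. It read -2.46, -2.68 and -2.43 in wild type and -2.20, -2.30 and -2.29 in transgenic samples. The difference of 0.26 ± 0.10 had an adjusted p of 0.843 (limma), and it was 0.08 with normexp. The other 2 Cacna1b probes tested differed by 0.30 ± 0.20 and -0.07 ± 0.12, and 3 more were too dim. Cacna1e, the R-type pore, had probes at -0.25 ± 0.19, 0.08 ± 0.13 and 0.32 ± 0.36. The last of these read -3.64 in wild-type replicate 1 and between -2.52 and -2.30 in every other sample, and on slide 2 it was -0.11.

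L-type channels carry the slow calcium currents that drive pacemaking and signalling to the nucleus. In Cacna1d the 3 probes disagreed. The probe at the stop codon read -3.66, -3.79 and -3.60 in wild type and -3.89, -4.05 and -3.83 in transgenic samples, a difference of -0.24 ± 0.11 with no overlap. A probe further along the transcript differed by 0.28 ± 0.14, and one far upstream by -0.29 ± 0.19. None of the 3 passed (adjusted p = 0.843 for each, limma). Cacna1s, the L-type pore of skeletal muscle, read -0.74, -0.73 and -0.48 in wild type and -0.81, -0.95 and -1.04 in transgenic samples. The groups did not overlap, and the difference of -0.28 ± 0.12 had an adjusted p of 0.843. Of 10 skeletal muscle markers 8 were tested and none had an unadjusted p under 0.05. Ckm and Myh1 were too dim to test. The summed level of all 10, on a linear scale, was 164 to 173 in wild type and 147 to 169 in transgenic samples. Nearly all of that sum was Pvalb, also a gene of Purkinje cells and interneurons, so it gives no level of muscle RNA. Pvalb read 7.35, 7.38 and 7.43 in wild type and 7.39, 7.20 and 7.32 in transgenic samples. Every other tested marker read below 0. Cacna1c, the main L-type pore of brain, ranged from -0.28 to 0.18 over 4 probes, and Cacna1f, the retinal one, gave 0.17 ± 0.40, or -0.31 on slide 2. Over the 9 L-type probes the median difference was -0.11, or -0.23 on slide 2, with 6 of the 9 lower either way. With all arrays none of the 9 had an unadjusted p under 0.05.

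T-type channels open at low voltage and support burst firing. Cacna1g, the T-type pore of Purkinje and inferior olive cells, gave -0.11 ± 0.09, -0.09 ± 0.14 and -0.04 ± 0.12. Its brightest probe read 3.22, 3.11 and 3.04 in wild type and 3.09, 3.02 and 2.94 in transgenic samples, with overlap. The Cacna1h probe printed above read -1.79 in wild-type replicate 1 and between -0.56 and -0.47 in the other 5 samples. Its difference of 0.41 ± 0.36 was accordingly -0.02 ± 0.07 on slide 2. The other Cacna1h probes, both dimmer, gave 0.12 ± 0.30 and -0.19 ± 0.20 (0.42 and -0.28 on slide 2), and Cacna1i gave 0.04 ± 0.10 and -0.05 ± 0.14. No T-type probe had an unadjusted p under 0.05.

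The calcium channel beta subunits, which bind the pore from inside and shield it from degradation, differed little. Cacnb4, the beta subunit lost in lethargic mice, read 2.87, 2.64 and 2.61 in wild type and 2.58, 2.68 and 2.48 in transgenic samples at its brightest probe. That difference was -0.12 ± 0.11, and the second probe gave -0.01 ± 0.13. Cacnb2 had 4 tested probes from -0.14 to 0.24, the highest 0.04 on slide 2, while Cacnb1 gave -0.01 ± 0.10 and Cacnb3 0.06 ± 0.12. None of the 8 probes had an unadjusted p under 0.05 or groups that did not overlap.

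Among sodium channel alpha subunits, Scn1a and Scn8a are the main pores of adult hindbrain neurons. Scn1a had 4 probes between -0.16 and -0.02. The brightest read 4.20, 3.84 and 3.91 in wild type and 3.91, 3.83 and 3.89 in transgenic samples, so the transgenic values lay within or just below the wild-type range. Scn8a, the pore at mature nodes of Ranvier, had the highest difference of the set in 1 of 4 probes. That probe, at chr15:100875702-100875761, read -0.15, 1.45 and 1.61 in wild type and 1.63, 1.82 and 1.70 in transgenic samples. The groups did not overlap, but the mean rested on wild-type replicate 1: the difference was 0.74 ± 0.46 (adjusted p = 0.843, limma) over all arrays and 0.19 ± 0.10 on slide 2. The other 3 Scn8a probes gave -0.13 ± 0.11, -0.02 ± 0.13 and -0.01 ± 0.17.

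Scn3a, a pore of the embryonic brain, had 5 tested probes from -0.35 to 0.50. The highest read -3.21 in wild-type replicate 1 and between -1.87 and -1.74 in the other 5 samples, and on slide 2 it differed by 0.05. The others gave -0.35 ± 0.36, -0.12 ± 0.12, -0.12 ± 0.24 and 0.04 ± 0.17. Scn4a, the skeletal muscle pore, gave 0.26 ± 0.16, and Scn11a, a pore of sensory neurons, -0.09 ± 0.13. Scn7a, Scn9a and Scn10a had no testable probe; the last 2 are best known from sensory ganglia. Of the 10 sensory ganglion markers, Trpv1 and Mrgprd were too dim, and none of the other 8 had an unadjusted p under 0.05.

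The sodium channel beta subunits, single-pass proteins that tune gating and bind adhesion molecules, differed little at their brighter probes. Scn2b read 5.03, 4.86 and 4.85 in wild type and 4.98, 4.89 and 4.88 in transgenic samples, a difference of 0.003 ± 0.095. Scn4b, whose product drives the resurgent sodium current of Purkinje cells, read 3.54, 3.66 and 3.64 against 3.46, 3.65 and 3.75, a difference of 0.007 ± 0.109. For Scn2b and Scn4b the 95% intervals ran from -0.23 to 0.23 and from -0.26 to 0.27. Scn3b gave 0.02 ± 0.16 in its brighter probe and 0.34 ± 0.37 in its dimmer one, the latter 0.03 on slide 2.

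**Figure D4:**
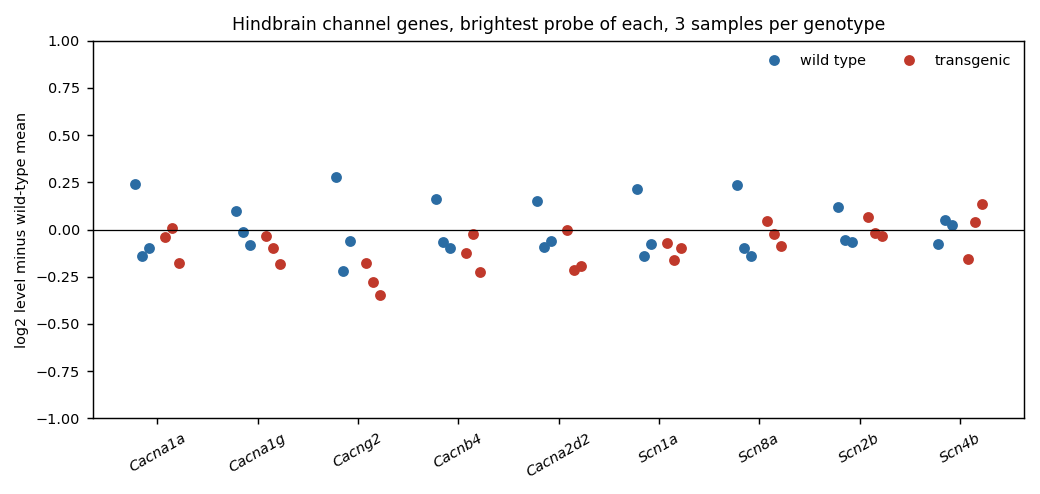
Level of the brightest probe of 9 hindbrain channel genes in each of 3 wild-type (blue) and 3 transgenic (red) samples, as log2 minus the wild-type mean. Wild-type and transgenic points overlap for every gene, and the mean differences run from -0.27 (Cacng2) to 0.01 (Scn4b).

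At its brightest probe, none of 9 channel genes chosen for their role in the hindbrain differed by more than the spread between samples. Wild-type and transgenic values overlapped at that probe in all 9. Apart from Cacng2, whose interval ran from -0.63 to 0.09, each of those intervals lay within a 1.5-fold change. At a dimmer probe Scn8a had groups apart, with a difference of 0.74 over all arrays and 0.19 on slide 2. Of 10 Purkinje cell markers none had an unadjusted p under 0.05, 9 had a lower mean in transgenic samples, and the summed level was 545 to 614 in wild type and 542 to 555 in transgenic samples. Cerebellar granule cell markers also had none at an unadjusted p under 0.05, but 9 of 10 had a lower mean, and their summed level of 282 to 294 in wild type lay entirely above the 228 to 274 of transgenic samples. The part of granule cells in the channel differences was not tested.

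Probes of 1 gene did not always move alike, though many of their differences were smaller than their SE. Of the 22 channel genes with at least 2 tested probes, 13 had differences of both signs, and the gap between the highest and lowest probe had a median of 0.38, against 0.18 over the 8552 such genes on the array. Channel genes carry up to 6 tested probes, which widens the gap by itself. How many of all such genes had differences of both signs was not counted. The gap was 1.17 in Cacng7, and 1.71% of all such genes had a gap of at least 1; the gap of Cacna2d4 rests on its probe with only a bound. In contrast the probes of Cacna2d2, Cacna1g and Cacna1a agreed within 0.12.

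**Figure D5:**
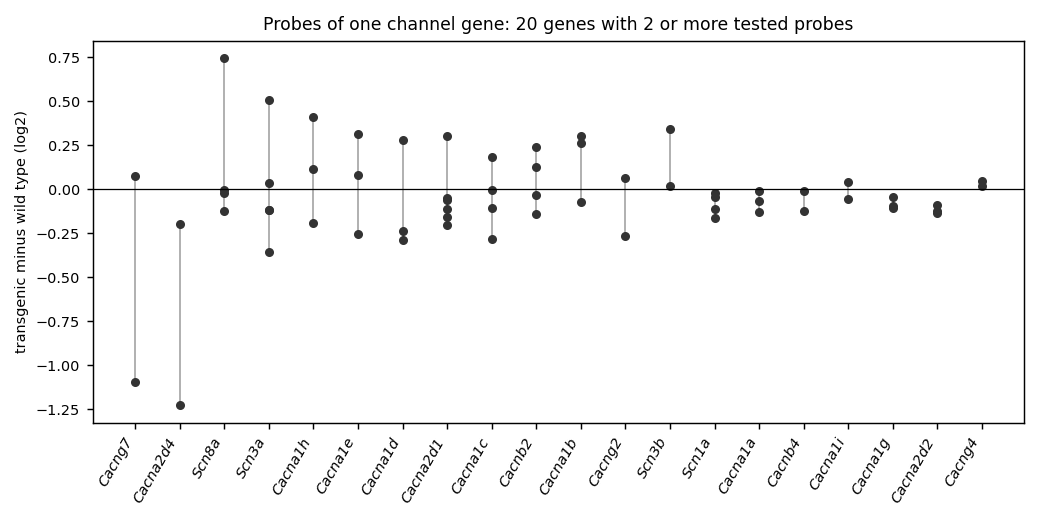
Log2 difference of each tested probe of 20 channel genes with at least 2, genes ordered by the gap between their probes. The Cacng7 probes lie 1.17 apart, the lower Cacna2d4 probe has only a bound in transgenic samples, and the probes of the genes at the right lie within 0.15 of one another.

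Scn2a, a main sodium pore of axon initial segments, was outside the naming rule because the files call it Scn2a1. Its brightest probe read 4.29, 3.98 and 3.99 in wild type and 3.94, 3.90 and 3.70 in transgenic samples, without overlap. The difference was -0.24 ± 0.13 (adjusted p = 0.843, limma), or -0.14 on slide 2. The other 3 probes gave -0.20, -0.09 and -0.05. With Scn2a included, 83 probes were tested, again none passed and 4 had an unadjusted p under 0.05.

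Genes that work with these channels were counted with 1 probe per gene, the brightest, where 3.13% of all genes were higher and 2.61% lower at an unadjusted p under 0.05. Of 20 sodium channel partners at the axon initial segment and node of Ranvier, none was higher and 2 were lower at that p, and 4 of 20 had a higher mean (49.9% of all genes). Their median was -0.09, and these counts and the median include wild-type replicate 1. The 2 were Epb41l3, a membrane skeleton protein, and Fgf14, a sodium channel binding protein linked to ataxia. Epb41l3 gave -0.30 ± 0.10 (-0.23 on slide 2) and Fgf14 gave -0.41 ± 0.16 (-0.25 on slide 2). Fgf11, of the same family as Fgf14, gave -0.25 ± 0.11 (-0.17 on slide 2). All 3 had groups apart, the only 3 of the 20. Over all probes tested, 13.9% had groups apart, 7.26% with the transgenic samples below. None of the 3 genes passed after adjustment over all probes (adjusted p of 0.827 to 0.843, limma). The scaffold Ank3, which anchors sodium channels, gave -0.12 ± 0.09, or -0.18 on slide 2.

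Among the 22 of 23 calcium channel partners tested (Rem1 was too dim), 1 was higher and 1 lower at an unadjusted p under 0.05, and 1 passed after adjustment (0.0401% of all genes). That gene was Cabp2, a calcium-binding protein that modulates calcium channels in sensory cells. It rose from -1.21, -1.38 and -1.23 in wild type to 1.40, 1.22 and 1.64 in transgenic samples, a difference of 2.70 ± 0.13 (adjusted p = 0.0104, limma). Rims1, which tethers calcium channels at release sites, was the one lower, at -0.36, -0.61 and -0.53 in wild type and -0.89, -0.90 and -1.12 in transgenic samples. That difference was -0.47 ± 0.11 (adjusted p = 0.556, limma). Cabp4, a relative of Cabp2, gave -0.28 ± 0.13, and the list's median was -0.05.

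AMPA receptor subunits and their other auxiliaries, the partners of the TARPs, had none of 13 tested genes (of 14 listed) at an unadjusted p under 0.05, and a median of 0.03. The subunit Gria2 gave -0.15 ± 0.12, the scaffold Dlg4 0.11 ± 0.09 and the pentraxin Nptx1 0.57 ± 0.42, or 0.07 on slide 2. Of 10 genes of the sodium leak channel complex and other cation channels, Nalcn, the leak pore, was lower (-0.50 ± 0.18) and Hcn2, a pacemaker channel, higher (0.30 ± 0.10) at an unadjusted p under 0.05. Both had groups apart and adjusted p of 0.838 and 0.799 (limma). Among those 10 genes groups were apart in 2 that were higher and 1 that was lower, against 13.9% of all probes tested.

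Some markers of other cells moved with genotype. For microglia 8 of 10 markers were higher at an unadjusted p under 0.05 (3.13% of all genes higher, 2.61% lower), with a summed level of 26.4 to 26.8 in wild type and 35.6 to 39.3 in transgenic samples. For mature oligodendrocytes 5 of 10 were lower, with a summed level of 353 to 420 against 287 to 317. For oligodendrocyte precursors 3 were higher and 1 lower (85.4 to 90.2 against 101 to 137). Most of that sum was Bcas1, at 5.95, 6.06 and 6.09 in wild type and 6.30, 6.56 and 6.79 in transgenic samples. By mean 6 of the 10 precursor markers were higher and 4 lower, with a median difference of 0.06. For astrocytes 1 was higher (480 to 698 against 602 to 644). Most of the astrocyte sum was Aldoc, which read 8.16 in wild-type replicate 1 and 8.89 and 8.96 in the other wild-type samples. In transgenic samples Aldoc read 8.70, 8.75 and 8.80. Brainstem neuron markers had none (29.6 to 35.6 against 28.8 to 35.3). Forebrain neuron markers had 1 of 8 tested, higher (19.6 to 20.0 against 18.3 to 20.8). Pituitary markers had none of 4 tested (37.3 to 45.9 against 38.2 to 40.5). The forebrain and pituitary sums take in all 10 markers of a list, those too dim to test included. Most of the forebrain sum was Ppp1r1b and most of the pituitary sum was Chga, so each mainly gives the level of 1 gene. The part of these cells in the differences of Cacng7, Cacna2d4 and the partner genes was not tested.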

How the data were processed

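Total RNA was measured on Agilent single-colour arrays, 3 per genotype. Per the file headers the authors read them with Feature Extraction 10.7.1.1 (9.5.1.1 per the submitters' processing notes) and annotated probes on mm9; deposited spot values are background-subtracted intensity on a linear scale. A second deposited file, the authors' table of intensity values (median 59.9 per column, on a linear scale, not centred), was used as an alternative.

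Levels are the log2 of the deposited intensity after division by the 75th percentile of its array. Control spots were dropped, as were 39 to 84 outlier spots on each array; none was saturated, and repeated spots were averaged. A probe was tested if every array of either genotype had it well above background (38463 probes), and fitted with limma 3.58.1 (R 4.3.3; lmFit, eBayes; genotype only), with Benjamini-Hochberg adjustment over all of them; 19 channel probes were not tested, 13 of them above background on no array. The fit was tested on simulated data. Of the 56605 probes, 32994 were named by accession, 10224 by symbol and 520 by synonym from RefSeq (GRCm38.p6); 12867 kept the file's name. Array signals give no read depth, and the number of arrays limits the precision.

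The channel genes and all lists were chosen with earlier results of these data known. Genes named were those past the adjusted threshold, the 2 with the smallest p in each role, hindbrain channels, genes whose probes differ in sign with 1 at an unadjusted p under 0.05, probes with groups apart and a difference of at least 0.5, the ends of ranges, and up to 3 per list; other channel genes are named to account for all members. Alternatives were background correction, scaling, filter, the authors' table, probe per gene, variance model, blocks and leaving out each sample. A few members and list genes are counted but not reported here by name.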

Additional observations from a re-analysis of the deposited data

How the results depend on the processing

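Over the alternatives run, the count of channel probes past an adjusted p under 0.05 was 0, except 1 with normexp, 1 with array weights and 1 with a trended robust prior, each time the upstream Cacng7 probe. The count at an unadjusted p under 0.05, 4 over all arrays, was 2 with the brightest probe per gene and 2 with its probes averaged, where 35 genes were tested. It was also 2 with adjacent title numbers as a block. With quantile normalization and in the authors' deposited table it was 3, and with slide as a block 5. Leaving out each sample in turn gave 2 to 6 (2 without transgenic replicate 3) and no adjusted call. The median difference ran from -0.09 (normexp) to 0.02 (slide as a block, or without wild-type replicate 1). Of the named probes' values under alternatives, 384 kept sign and side of the threshold, 3 passed it (all Cacng7) and 20 changed sign, none of them past the threshold; the cause was not tested. Over all probes the adjusted calls were 11, against 36 with normexp, 40 with a trended robust prior, 94 with array weights, 24 with probes averaged per gene, 23 with probes above background on all 6 arrays, 4 with no filter and 0 to 10 with a sample left out. The labels give no shared replicate number and do not say that adjacent title numbers mark pairs. A replicate block on them, chosen after seeing the data, gave 0 adjusted calls and a median of -0.04. Deviations from the genotype means correlated at 0.17, 0.08 and -0.01 within these pairs, and not every sample correlated best with its own. Blocking on the leading digit of the titles' numbers gave 0 channel calls. Scan date as a block was not run, since all arrays share 1 date and scan times fall together with slide.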
